A study of Homo sapiens with 4 samples.

Results

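The genes described here are 10 that mark gastrointestinal stromal tumor (GIST) and the cell it resembles, the interstitial cell of Cajal: the transcription factors ETV1, HAND1, HAND2, BARX1 and NKX3-2, the channel ANO1, the receptor GPR20, the kinase PRKCQ and the surface glycoproteins CD34 and PROM1. They were chosen by name, and every noncontrol probe whose gene name in the scanner output was exactly one of them was taken, which gave 15 probes for 10 of the 36337 gene names on the array. Of these genes, 7 had 1 probe, ETV1 had 4, and ANO1 and CD34 had 2 each. Expression was measured on one-color Agilent arrays in GIST-T1, an established human cell line grown from a GIST. One group of cells was transfected with a miR-34a mimic, a synthetic RNA duplex that supplies the mature miRNA, and the other with a negative control RNA (mirVana miRNA mimic Negative Control #1), and each group had 2 arrays. Both groups were otherwise handled alike, with 100 pmol of RNA delivered by Nucleofector into 3000000 cells, RNA extraction after 48 h and 100 ng of total RNA labeled with Cy3. Neither group carries a genetic change beyond those of the line, which by the study include a gain-of-function mutation in the receptor gene KIT. Untransfected cells were not analysed here, and a single line stands for GIST.

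Interstitial cells of Cajal pace the contractions of the gut, and both these cells and GISTs depend on the receptor tyrosine kinase KIT. ETV1 is the lineage transcription factor that cooperates with KIT, and signaling from KIT through the MAPK cascade stabilizes the ETV1 protein. ANO1 (also called DOG1), PRKCQ and CD34 are used with KIT in the pathological diagnosis of GIST. The miRNA itself pairs with its targets through the seed near its 5' end, and pairing lowers the stability or translation of the mRNA. Its sequence is shown because the seed decides which transcripts it can pair with. The RefSeq sequence of mature miR-34a-5p, encoded on the minus strand of chromosome 1 (chr1:9151735-9151756, GRCh38.p14), is given 5' to 3' with the seed, bases 2 to 8, in capitals.

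hsa-miR-34a-5p: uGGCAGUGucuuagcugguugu

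The matching heptamer in a transcript is CACTGCC, and the shorter match followed by an A is ACTGCCA, so that the pair overlap. Neither was found on either strand of the 15 probes, which are 60 bases long. Over the 50599 probes of the array, CACTGCC was present in 0.435% and its reverse complement in 0.48%, and ACTGCCA in 0.393% and 0.488%. The absence of these letters from probes this short says nothing about the rest of each transcript, whose sequence was not used here.

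The probes of 4 genes are shown because they read different kinds of result: CD34, higher with the mimic; PRKCQ, lower but within its error; PROM1, the smallest difference; and the first ETV1 probe, one of 3 that lay near 0. All 4 lie on the minus strand of hg19, are given 5' to 3' in the orientation of the transcript, and have at least 1 reading frame without a stop codon. Their positions are chr1:208062032-208062091 for CD34, chr10:6470188-6470247 for PRKCQ, chr4:15982046-15982105 for PROM1 and chr7:13935632-13935691 for ETV1. No letters are in capitals, because no seed match was present.

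CD34 probe 1: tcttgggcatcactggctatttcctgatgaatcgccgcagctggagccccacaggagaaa
PRKCQ: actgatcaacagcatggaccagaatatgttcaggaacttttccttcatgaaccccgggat
PROM1: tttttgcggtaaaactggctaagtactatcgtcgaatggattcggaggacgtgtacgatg
ETV1 probe 1: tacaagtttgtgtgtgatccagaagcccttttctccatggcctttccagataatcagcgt

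Levels are given as the log2 of the processed signal minus the 75th percentile of the array, called the scaled signal below, so that 0 is that percentile. Differences are the mean of the miR-34a mimic arrays minus the mean of the negative control arrays on this scale, and they were tested with limma over 21474 probes. Probes bind with different strength, so that levels were not compared between probes or genes. Each of the 15 probes was detected well above background on every array, and none was saturated. Their raw signal was between 6.19 and 915 times the local background, and each lay above the 75th percentile of each array. The cells had a measurable level of every one of the 10 genes in the negative control, ETV1, ANO1, PRKCQ, CD34 and GPR20 included. Over the whole array, 21164 to 22890 of 50599 probes were well above background on each of the 4 arrays.

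None of the 15 probes differed by more than 1.5-fold, the fold the study applied to these arrays: 0 were lower and 0 were higher, against 4.8% and 2.11% of all tested probes. At an adjusted p under 0.05, limma called 0 of the 15, against 0% of all tested probes, and no probe of the array had an adjusted p under 0.0948. Without adjustment, 4 of the 15 probes (both CD34 probes, GPR20 and HAND1) had a p under 0.05 by limma, against 24.3% of all tested probes. The methods' t-test gave 6 of the 15 at the unadjusted threshold, against 19.6% of 21453 probes, and 0 after Benjamini-Hochberg adjustment, against 0.00466%. When limma modeled the variance as a trend along signal intensity, those 4 probes of 3 genes passed an adjusted p under 0.05, GPR20 and HAND1 being lower, against 3.6% of all tested probes, and CD34 higher, against 3.81%. Nothing in the labels or methods says that the arrays of a group came from separate transfections, so that these p-values measure the spread between arrays, which may be technical. With 2 arrays against 2, the lowest two-sided p that an exact permutation test of 1 probe can reach is 0.333.

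**Figure D1:**
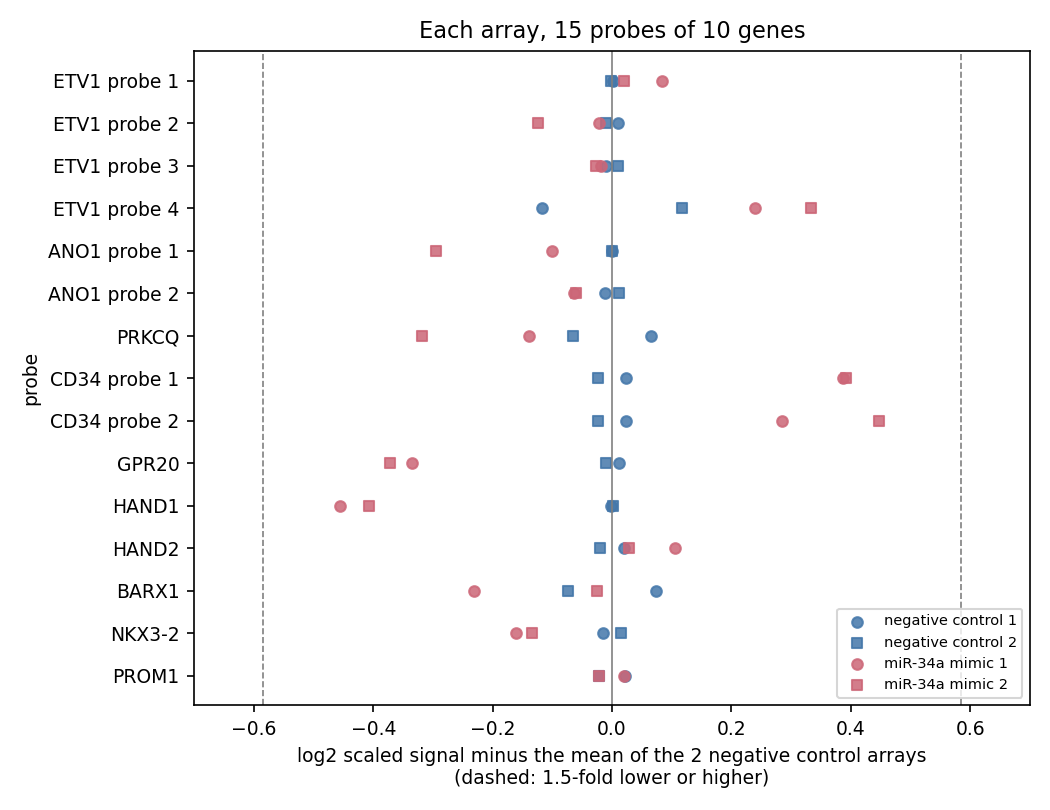
Scaled signal of each probe on each array, as a log2 difference from the mean of the 2 negative control arrays; circles are replicate 1, squares replicate 2, and probes of one gene are numbered from the 5' end of the transcript. Both mimic arrays sit to the right of both control arrays for CD34 and to the left for GPR20 and HAND1, and no point reaches the dashed lines at 1.5-fold.

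The arrays separated the groups on most of the 15 probes, by small amounts. On 8 probes the mimic arrays were both lower than the control arrays, against 30.1% of 21453 probes with a value on every array, on 5 they were both higher, against 30.4%, and on the other 2 the groups overlapped. The median difference of the 15 probes was -0.06, beside -0.0077 for all tested probes, and the median size of the difference was 0.15 for both. The gap between replicates on these probes had a median of 0.06 for the mimic and 0.03 for the control, against 0.10 and 0.08 over all tested probes. For 12 of the 15 probes the 95% interval of the difference lay entirely inside 1.5-fold in either direction, as for 68.5% of all tested probes. The 3 whose interval crossed that fold were HAND1, the second CD34 probe and the fourth ETV1 probe.

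**Figure D2:**
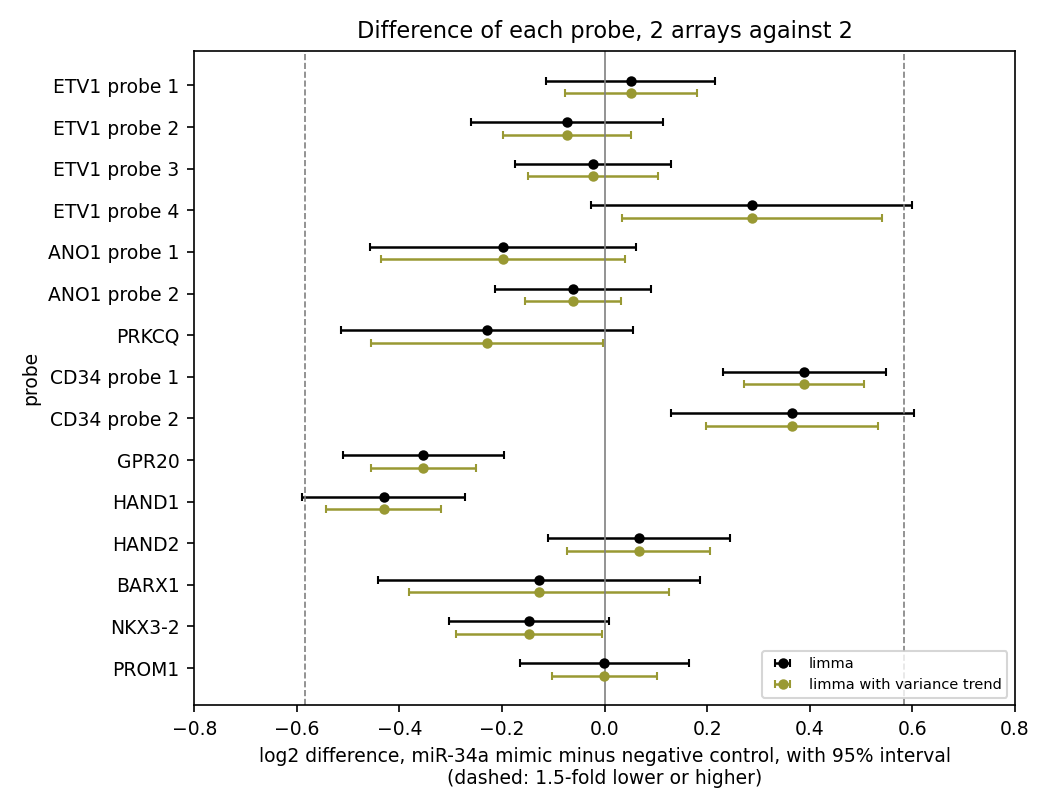
Log2 difference of each probe, miR-34a mimic minus negative control, with its 95% interval from limma (black) and from limma with a variance trend (olive), 2 arrays against 2. The intervals of both CD34 probes, GPR20 and HAND1 exclude 0 under either model, and those of HAND1, CD34 probe 2 and ETV1 probe 4 reach past the dashed lines at 1.5-fold under limma without the trend.

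ETV1, an ETS-family factor on chromosome 7 (minus strand, hg19), was read by 4 probes that lie 4595, 3048, 2358 and 0 bases from the last one, counted along the genome from the 5' to the 3' side. Probe 1 gave scaled signals of 2.20 and 2.13 on the mimic arrays and 2.12 and 2.11 on the control arrays, a difference of 0.05 (95% interval -0.11 to 0.22, adjusted p = 0.598 by limma). Probe 2 gave 4.13 and 4.03 against 4.16 and 4.14, a difference of -0.07 (-0.26 to 0.11, adjusted p = 0.516 by limma). Probe 3 gave 1.82 and 1.81 against 1.82 and 1.85, a difference of -0.02 (-0.17 to 0.13, adjusted p = 0.804 by limma). The differences of these 3 probes lay between -0.07 and 0.05, and their intervals reached at most 1.2-fold in either direction.

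The fourth ETV1 probe, farthest toward the 3' end (chr7:13931037-13931096, hg19), stood apart from the others. It gave 0.84 and 0.93 on the mimic arrays and 0.48 and 0.72 on the control arrays, higher by 0.29 (-0.03 to 0.60, adjusted p = 0.227 by limma). The mimic arrays were both above the control arrays, but the control arrays differed from each other by 0.23, nearly as much as the groups. The difference was 0.17 after normexp background correction, where its adjusted p was 0.244 by limma, and between 0.17 and 0.40 with 1 array left out, lowest without negative control 1 and highest without negative control 2. Its interval excluded 0 without negative control 2 (0.07 to 0.74) and with the variance trend (0.03 to 0.54). It also did so with the replicate number as a block (0.02 to 0.55) and without scaling between arrays (0.02 to 0.57). Over all settings the adjusted p of this probe was between 0.144 and 0.544. The 4 probes of ETV1 thus spanned 0.36 in their differences, and whether the fourth differs from the others was not tested.

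**Figure D3:**
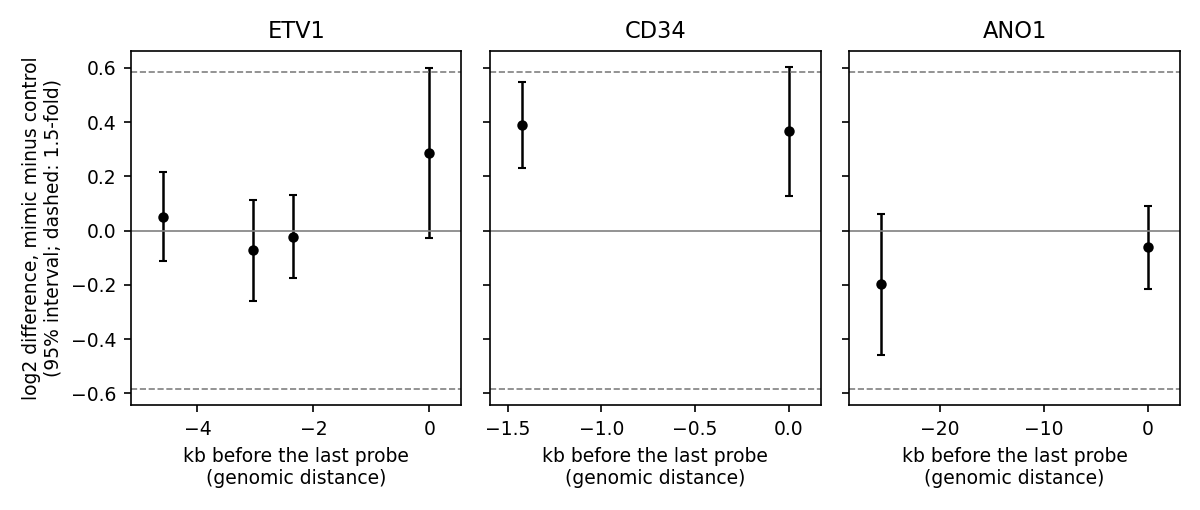
Log2 difference (y axis, with its 95% interval from limma) of the probes of ETV1, CD34 and ANO1 against the genomic distance in kb before the last probe of that gene. The pair of CD34 probes gave 0.39 and 0.37 and the first 3 ETV1 probes lay near 0, whereas the last ETV1 probe was at 0.29 with an interval that includes 0.

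The listed relatives and partners of ETV1 had small differences. All 7 listed genes with a probe were tested, and 0 passed 1.5-fold in either direction, against 4.8% of all tested probes lower and 2.11% higher. The difference was negative for 5 (ETV4, ETV5, DUSP6, SPRY2 and SPRY4) and positive for 2 (DET1 and RFWD2). The median difference of the 7 was -0.12, beside -0.0077 for all tested probes. A dimmer SPRY4 probe, named after its values were seen, differed by -0.29. ETV4, which belongs to the same ETS subfamily, differed by -0.12 (-0.28 to 0.03, adjusted p = 0.267 by limma), and ETV5, its other close relative, by -0.08 (-0.28 to 0.11, adjusted p = 0.479 by limma). DUSP6, a phosphatase that ERK signaling induces and that acts back on ERK, differed by -0.16 (-0.32 to -0.0015, adjusted p = 0.203 by limma).

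HAND1 had the largest negative difference of the 10 genes. It encodes a basic helix-loop-helix factor of heart and gut mesenchyme, and its probe lies on chromosome 5 (chr5:153854793-153854852, minus strand, hg19). The processed signal was 954 and 992 on the mimic arrays and 1325 and 1285 on the control arrays, which corresponds to scaled signals of 2.72 and 2.77 against 3.17 and 3.17. The control arrays were within 0.0023 of each other, the mimic arrays within 0.05, and the groups did not overlap. The difference was -0.43 (-0.59 to -0.27), a level 1.35-fold lower with the mimic, with an adjusted p of 0.0954 by limma. The adjusted p was 0.0147 with the variance trend, 0.0304 after normexp and between 0.0147 and 0.357 over all settings, the highest without negative control 2. Of all tested probes, 8.22% had a lower difference.

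HAND2, the paralog of HAND1, had a small difference of the opposite sign. Its probe (chr4:174448273-174448332, hg19) gave 2.08 and 2.00 on the mimic arrays and 2.00 and 1.96 on the control arrays, a difference of 0.07 (-0.11 to 0.24, adjusted p = 0.529 by limma). The interval of HAND2 lay wholly above that of HAND1, although the difference between the genes was not itself tested.

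BARX1 and NKX3-2 are homeobox factors of the stomach mesenchyme and of the pyloric and skeletal mesenchyme. BARX1 (chr9:96714287-96714346, hg19) gave 0.56 and 0.77 with the mimic and 0.87 and 0.72 with the control, so that the groups overlapped, and the difference was -0.13 (-0.44 to 0.19, adjusted p = 0.499 by limma). The difference of BARX1 with 1 array left out lay between -0.23 and -0.02. NKX3-2 (chr4:13542776-13542835, hg19) gave 1.22 and 1.25 against 1.37 and 1.40. Its groups did not overlap and its replicates were within 0.03 of each other, but the difference of -0.15 (-0.30 to 0.0088, adjusted p = 0.219 by limma) was a level only 1.11-fold lower. The interval of NKX3-2 excluded 0 with the variance trend (-0.29 to -0.0047) and after quantile normalization (-0.31 to -0.0023).

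GPR20, an orphan G protein-coupled receptor, was the other gene with a level clearly lower on both mimic arrays. Its probe (chr8:142366645-142366704, minus strand, hg19) gave a processed signal of 29556 and 28932 with the mimic and 38070 and 36308 with the control, and scaled signals of 7.67 and 7.63 against 8.02 and 7.99. The replicates of each group were within 0.04 of each other and the groups did not overlap. The difference was -0.35 (-0.51 to -0.20), a level 1.28-fold lower, with an adjusted p of 0.0999 by limma and 0.0169 with the variance trend. Over all settings the adjusted p was between 0.0169 and 0.36, the highest without negative control 2. The size of the GPR20 difference depended on the scaling, and after quantile normalization it was -0.19 with an adjusted p of 0.182 by limma.

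ANO1, a calcium-activated chloride channel that drives the slow waves of Cajal cells, was read by probes 25612 bases apart on chromosome 11 (plus strand, hg19). Probe 2, at the 3' side (chr11:70035233-70035292), gave processed signals of 4593 and 4628 with the mimic and 4824 and 4752 with the control, and a difference of -0.06 (-0.21 to 0.09, adjusted p = 0.502 by limma). Probe 1 (chr11:70009621-70009680), which the array assigns to an Ensembl transcript and not to a RefSeq one, gave scaled signals of 0.22 and 0.03 against 0.32 and 0.32. Its difference of -0.20 (-0.46 to 0.06, adjusted p = 0.28 by limma) was about the size of the gap between its mimic arrays, 0.20. With 1 array left out, the difference of probe 1 lay between -0.30 and -0.10, and without miR-34a mimic 1 its interval (-0.52 to -0.07) excluded 0. Both ANO1 probes were lower on both mimic arrays, and with all 4 arrays the intervals of both included 0.

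PRKCQ encodes protein kinase C theta, a kinase known from T cells that GISTs also express. Its probe gave 1.13 and 0.95 on the mimic arrays and 1.34 and 1.21 on the control arrays. The groups did not overlap, but the replicates were 0.18 and 0.13 apart, and the difference was -0.23 (-0.51 to 0.06, adjusted p = 0.264 by limma). With each array left out, it lay between -0.32 and -0.14. The interval of PRKCQ excluded 0 with the variance trend (-0.45 to -0.0030) and with the replicate number as a block (-0.46 to -0.00093).

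CD34 was the only one of the 10 genes that was higher with the mimic on more than 1 probe with an interval that excluded 0. It encodes a sialomucin of the cell surface found on GISTs, endothelium and blood progenitors, and its probes lie 1423 bases apart on chromosome 1. Probe 1, shown above, gave processed signals of 985 and 993 with the mimic and 776 and 728 with the control, and scaled signals of 2.76 and 2.77 against 2.40 and 2.35. Probe 2, at the 3' side (chr1:208060609-208060668, minus strand, hg19), gave 1316 and 1480 against 1113 and 1043, and scaled signals of 3.18 and 3.34 against 2.92 and 2.87. On both probes the mimic arrays were above the control arrays by more than either replicate gap.

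The differences of the CD34 probes were 0.39 (0.23 to 0.55) and 0.37 (0.13 to 0.60), levels 1.31-fold and 1.29-fold higher, with adjusted p-values of 0.0954 and 0.133 by limma. With the variance trend they were 0.0176 and 0.0407, and over all settings they lay between 0.0176 and 0.357 for probe 1 and between 0.0407 and 0.393 for probe 2, in both cases highest without negative control 2. Of all tested probes, 5.87% had a higher difference than probe 1 and 6.69% a higher one than probe 2. Both probes read the same 4 RNA samples, so that they repeat the measurement but not the experiment.

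PROM1 (CD133), a glycoprotein of membrane protrusions, had the difference nearest to 0. The processed signal was 6681 and 6521 with the mimic and 6779 and 6364 with the control, and the scaled signals were 5.53 and 5.48 in both groups. The difference was -8.7e-05 (-0.16 to 0.16, adjusted p = 0.9997 by limma), an interval that reached 1.12-fold in either direction. Its sign changed with the scaling, and the highest value was 0.06 after quantile normalization.

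**Figure D4:**
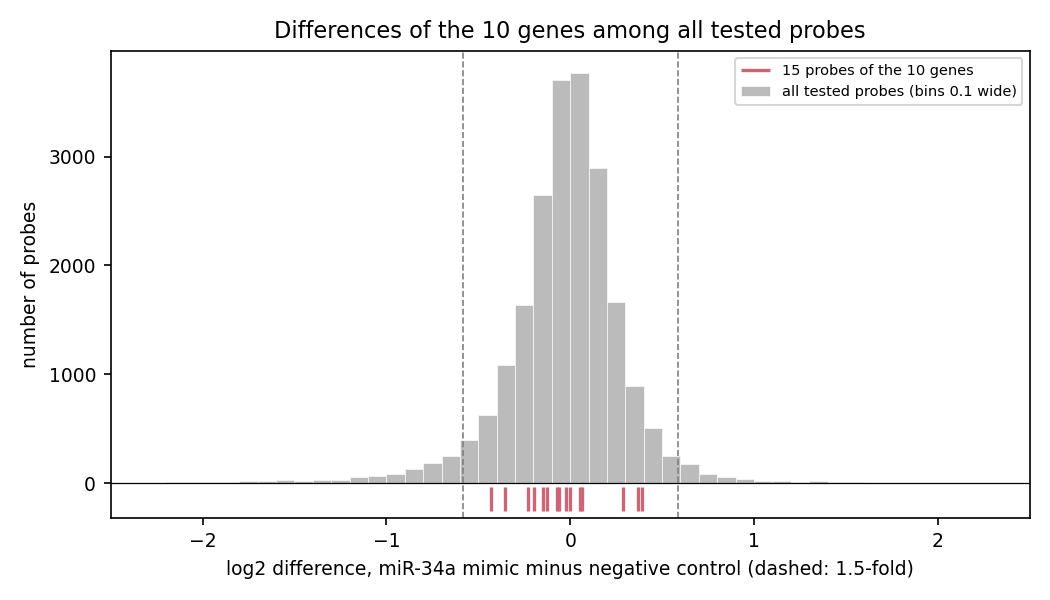
Histogram of the log2 difference, miR-34a mimic minus negative control, of all 21474 tested probes in bins of 0.1 (grey; probes beyond 2.5 on either side are not drawn), with a tick under the axis for each of the 15 probes. The ticks lie between -0.43 and 0.39, all inside the dashed lines at 1.5-fold.

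Other genes of GIST and Cajal cells include the receptors that drive the tumor. Of 14 such genes on the array, 11 were tested, and their median difference was 0.02. Of the 11, 2 passed 1.5-fold, both of them lower, against 4.8% of all tested probes. These were KIT and PDGFRA, the receptor tyrosine kinases mutated in GIST. The brightest KIT probe gave 6.74 and 6.79 with the mimic and 7.46 and 7.46 with the control, a difference of -0.70 (adjusted p = 0.0948 by limma). Its other probes differed by -0.74 and -0.70. PDGFRA gave 4.48 and 4.35 against 5.98 and 5.92, a difference of -1.53 (adjusted p = 0.0948 by limma). With the variance trend in limma, the adjusted p-values of KIT (brightest probe) and PDGFRA were 0.00705 and 0.00472. Their intervals, -0.86 to -0.54 for KIT and -1.75 to -1.32 for PDGFRA, did not overlap that of ETV1 probe 2, whereas the interval of HAND1 overlapped that of KIT. None of the 10 genes described here had a difference as large as that of KIT.

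The mesenchymal transcription factors in that list differed in how well they were measured. FOXF1, a forkhead factor of gut mesenchyme, gave 5.64 and 5.70 against 5.64 and 5.62, a difference of 0.04 (adjusted p = 0.674 by limma). OSR1, a zinc finger factor of mesoderm, gave 1.52 and 1.47 against 1.33 and 1.33, a difference of 0.16 (0.0041 to 0.32, adjusted p = 0.2 by limma). HIC1, a zinc finger repressor of mesenchymal cells, could not be placed, since it gave 5.49 and 5.59 with the mimic and 5.66 and 4.53 with the control, where negative control 2 lay apart. Its difference was 0.44 (-0.79 to 1.68, adjusted p = 0.548 by limma), and its direction turned on that array, being -0.12 without negative control 2 and 1.01 without negative control 1. FOXF2, a relative of FOXF1 named after its values were seen, gave -1.08 and -1.30 against -1.41 and -1.36, a difference of 0.19 (-0.10 to 0.48, adjusted p = 0.326 by limma).

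Paralogs of the 10 genes, from the anoctamin, protein kinase C, podocalyxin, BARX, NKX3 and prominin families, were compared in the same way. Of 22 on the array, 15 were tested, and their median difference was -0.03. By its brightest tested probe, 1 passed 1.5-fold and was higher, against 2.11% of all tested probes. This was ANO2, whose tested probe gave -2.74 and -2.11 with the mimic and -2.92 and -3.30 with the control. Its difference was 0.68 with a standard error of 0.28 (adjusted p = 0.253 by limma). The probe was well above background on 3 of the 4 arrays, both mimic arrays and 1 control array. It was tested only because the mimic arrays, where it was higher, both detected it. Dimmer probes of ANO7 (-1.27, adjusted p = 0.251 by limma) and PRKCE (-0.59, adjusted p = 0.186 by limma), named after their values were seen, passed the fold in the other direction. The brightest tested probes of these genes differed by -0.03 and -0.50. The dimmer PRKCE probe was well above background on 1 mimic array, and was tested only because the control arrays, where it was higher, both detected it. PODXL, the podocalyxin relative of CD34, was lower by 0.45 on the log2 scale, with an adjusted p of 0.0954 by limma and 0.0194 with the variance trend, opposite in direction to CD34; it is named because it was the single paralog that passed the latter, after its values were seen.

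CD34 and KIT also mark other cell types, whose defining genes were therefore examined. Of the 6 endothelial markers, PECAM1, KDR, TEK and CLDN5 were not well above background on any array, VWF was on 1, and CDH5 was on the negative control arrays alone. CDH5 was at least 1.54-fold lower with the mimic (adjusted p = 0.0948 by limma), but it was tested only because the control arrays detected it, and both mimic values in that test were under detection. On a linear scale (1 being the array's 75th percentile), the summed scaled level of the 6 was 0.326 and 0.226 with the mimic. With the control it was 0.448 and 0.303. These sums hold values under detection, such as 0.104 for PECAM1 on miR-34a mimic 1. Their overlap between groups therefore says nothing of the endothelial level. All 4 mast cell markers (TPSAB1, CPA3, MS4A2 and HDC) were not well above background on any array. Their sums, of values under detection alone, were 0.126 and 0.15 against 0.15 and 0.227. Any part of the endothelial genes in the CD34 difference was not tested.

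Smooth muscle, the neighbor of Cajal cells in the gut wall, was represented by 9 markers, of which 6 were tested. MYH11 and MYOCD, which define mature smooth muscle, were not well above background on any array. Of the 6, 4 had a negative and 2 a positive difference, with a median of -0.14. TAGLN, an actin-binding protein, was the 1 marker past the fold and was higher by 0.70 (0.51 to 0.88, adjusted p = 0.0948 by limma). Its dimmer probe, named after its value was seen, was higher by 0.54 and did not pass the fold. Of all tested probes, 2.11% were higher by more than that fold and 4.8% lower. Named after their values were seen, DES, the intermediate filament desmin, differed by -0.39 (-0.56 to -0.22), the actin ACTA2 by -0.20 (-0.37 to -0.03) and the actin ACTG2 by -0.18 (-0.34 to -0.02), with adjusted p-values of 0.0994, 0.171 and 0.179 by limma. With the variance trend, TAGLN (adjusted p = 0.0157) and DES (adjusted p = 0.0346) passed, in opposite directions. The sums of the smooth muscle markers were 128 and 137 with the mimic and 130 and 134 with the control, of which CALD1 alone made up 106 and 114 against 106 and 110, so that they say little of the other markers. Of the 6 enteric neuron and glia markers only RET was detected, with sums of 0.478 and 0.333 against 0.417 and 0.381. The brightest RET probe differed by -0.11. A dimmer RET probe, named after its values were seen, was higher by 0.75 (adjusted p = 0.17 by limma). That probe was tested only because the mimic arrays detected it, and both control values were under detection. Of the 4 epithelial markers only EPCAM was detected, with sums of 0.328 and 0.396 against 0.292 and 0.293. EPCAM itself, named after its values were seen, was higher by 0.41 (0.03 to 0.80, adjusted p = 0.189 by limma). In a culture of 1 cell line, fewer cells that express a gene and less RNA per cell cannot be told apart.

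**Figure D5:**
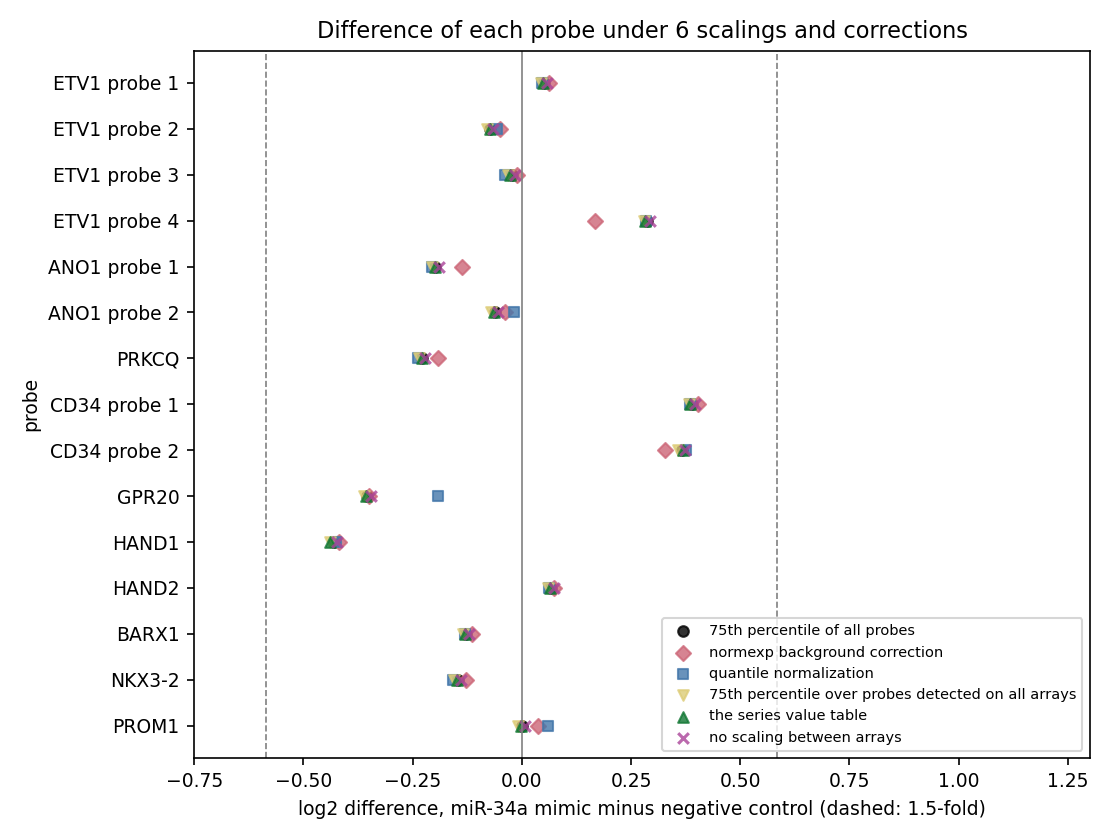
Log2 difference of each probe, miR-34a mimic minus negative control, under 6 ways of correcting or scaling the arrays. HAND1 stayed between -0.44 and -0.42 and CD34 probe 1 between 0.38 and 0.40, whereas GPR20 moved from -0.35 to -0.19 under quantile normalization, ETV1 probe 4 from 0.29 to 0.17 under normexp, and PROM1 crossed 0.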

How the data were processed

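RNA of GIST-T1 cells was hybridized to SurePrint G3 arrays, 2 per group by the sample labels. The authors deposited the intensity of every spot from Agilent Feature Extraction 10.7 (per the labels), background-subtracted and detrended but not scaled between arrays, and a table of the same intensity values for all arrays, within 0.496% of the scanner output. Control spots and outlier spots were dropped, spots of a probe averaged, and the log2 of the deposited intensity centered on each array's 75th percentile. Probes well above background on both arrays of either group (21474 of 50599) were tested with limma 3.58.1 and Benjamini-Hochberg adjustment over all of them in R 4.3.3. The array's own annotation gave gene names and hg19 positions, and 14 of the 15 probes were matched by accession to a RefSeq gene of GRCh38.p14.

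For lists, each gene stood by its brightest tested probe. Named were the 10 genes with every probe, list genes past 1.5-fold, and KIT, PDGFRA, ETV4, ETV5, DUSP6, FOXF1, OSR1 and HIC1. Genes and lists were chosen with earlier results of these data known. The list of blood cell markers is not reported here. For the CDH5 bound, a level not well above background was set to the lowest detected signal of the array, or its own if higher. Tests and sums used the measured values, those under detection included. Alternatives were normexp (offset 50), quantile normalization, the percentile over detected probes, no or a stricter filter, the table of all arrays, a variance trend, the methods' t-test, a replicate block, each array left out, another detection flag and, added after the data were seen, no scaling and each array left out for the list of other GIST genes. Calculations were tested on simulated data. The number of arrays limits the precision.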

Additional observations from a re-analysis of the deposited data

How the results depend on the processing

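All settings kept the counts of probes past 1.5-fold at 0 lower and 0 higher. The number of the 15 probes called by limma, 0 as reported, was 3 after normexp background correction (CD34 probe 1, GPR20 and HAND1; 877 probes of the array) and 4 with the variance trend (these and CD34 probe 2; 1591 of the array), and 0 under every other setting, each array left out included. With an array left out, the spread comes from the other group alone, and the lone array is taken to share it. The direction of each probe held under every setting except for PROM1, whose difference was 0.038 after normexp, 0.0598 after quantile normalization, 0.0071 without scaling, and between -0.0224 and 0.0222 with arrays left out. Among the other GIST and Cajal cell genes, 4 in place of 2 passed 1.5-fold without the filter on dim probes, by the addition of EDNRB (-0.61) and KCNK3 (-0.95), each well above background on 1 array and named after their values were seen, and with each array left out 2 or 3 did. No setting moved the median of all tested probes by more than 0.031. Detection of the 15 probes was the same by the second detection flag.

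Deviations of arrays with the same replicate number correlated at -0.03, so that no shared effect of the number was seen. Whether arrays with the same number were prepared together is not stated in the labels or methods. With the number as a replicate block, limma called 0 of the 15 probes, and their lowest adjusted p was 0.223.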
